A study of Mus musculus and Homo sapiens with 90 samples.

Results

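Reporter RNA was set against reporter DNA in the liver of conventional mice, by a massively parallel reporter assay (MPRA) run as 5 sub-libraries. The libraries were chosen by their titles and tables, and they number 30 of the 90 samples of the series, with 15 RNA and 15 DNA libraries. Regions whose names start with EH38D, EM10D or Peak_ were taken as test regions, and all other names as negative controls. The 5 tables held 72336 entries, of which 66442 were test regions with 66304 distinct names and 5894 were negative controls with 1938 distinct names. A mark for controls in the tables equalled this reading of the names in all 72336 entries. Names of controls are a stem followed by a start and an end that span 190 positions, as in YML052W_338_527, and the files do not say what the stems are. Genomic coordinates and sequences of the regions were not used here. The start and end in the names of controls were used only to count the positions that controls share.

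The series measured the same kind of library in liver of conventional and germ-free mice and in human HepG2 liver cancer cells. All libraries described here carry the genotype C57BL/6, the tissue liver and no treatment entry, and they are called conventional for that reason. The age of the animals and the way the reporters reached the liver are not given in the sources used here. RNA was enriched for poly(A) transcripts, cleared of DNA with DNase and copied with primers specific to the reporter, whereas DNA was prepared with a plasmid kit. Sub-libraries 1 and 4 had 4 RNA and 4 DNA libraries, sub-libraries 2 and 3 had 2 of each, and sub-library 5 had 3 of each. The labels do not say that replicates came from separate animals, and the spread that p-values are based on may therefore be technical. The tables count reporter regions and no liver genes, so markers of liver cell types could not be checked.

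Enhancers are stretches of DNA that bind transcription factors and raise transcription from a promoter, and many of them work only in some cell types. In an MPRA, each candidate region is placed in a reporter gene, and the transcripts carry a sequence that identifies the region. RNA counts divided by DNA counts then give the transcript made per copy of the reporter. Negative controls are included to give the ratios of sequence that is not a candidate regulatory region.

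The counts summed to between 1172822 and 6627375 per RNA library and between 2507261 and 6381704 per DNA library. The smallest RNA count was 10 in all 5 tables, so a region with fewer transcripts in a library is not listed, and the totals are sums over listed regions. Sub-library 2 had the lowest totals and listed 4606 regions, against 15499 to 18473 in the other 4. DNA replicates were close to one another, with Pearson correlations of log2 CPM (counts scaled to the library total) across regions from 0.973 to 0.981. RNA replicates were further apart, from 0.859 to 0.942 in sub-libraries 1 and 4, from 0.792 to 0.851 in sub-library 5, and at 0.751 and 0.626 for the single pairs of sub-libraries 3 and 2. Regions share their libraries, and these correlations describe the libraries only. No replicates were so close that they could be one library deposited more than once, since the chi-square per degree of freedom was at least 1.71 between DNA libraries and 8.47 between RNA libraries.

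Test regions took a larger part of the RNA than of the DNA, and controls a smaller one, in each sub-library. For each library, the median log2 CPM of test regions minus that of controls was taken as the shift. Averaged within each sub-library and then over sub-libraries, each counted once, it was 0.434 in RNA and 0.121 in DNA, a difference of 0.313. Averages of the other per-library measures below were taken in the same way. Every RNA library lay above every DNA library of its own sub-library in 5 of 5 sub-libraries. A 2-sided exact permutation test, with RNA and DNA labels exchanged within sub-libraries, gave p = 5.67e-07, the smallest that its 3528000 arrangements allow. Within a sub-library the same test gave the smallest p its size allows, which is 0.0286 for 4 against 4, 0.1 for 3 against 3 and 0.333 for 2 against 2, so 3 of the 5 sub-libraries could not pass 0.05 alone.

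The shift differed in size between sub-libraries and between RNA libraries. In sub-library 1 it was 0.318 ± 0.112 (SD, n = 4) in RNA and 0.0790 ± 0.0128 (SD, n = 4) in DNA. In sub-library 4 it was 0.426 ± 0.0563 (SD, n = 4) against 0.191 ± 0.0194 (SD, n = 4). In sub-library 5, where it was largest among those with more than 2 RNA libraries, it was 0.577 ± 0.0631 (SD, n = 3) against 0.120 ± 0.0506 (SD, n = 3). The pair of RNA libraries of sub-library 2 stood far apart, at 0.206 and 0.858, against DNA values of -0.00135 and 0.0236. In sub-library 3 the RNA libraries were at 0.405 and 0.228 and the DNA libraries at 0.211 and 0.196, so that the lower RNA library was only just above the DNA. RNA and DNA lay nearest to each other in that sub-library.

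The upper end, a measure chosen after the data were seen, separated RNA from DNA by much more than the middle did. The 95th percentile of log2 CPM over test regions exceeded that over controls by 1.857 in RNA libraries and by 0.480 in DNA libraries on average. All RNA libraries lay between 1.486 and 2.214, and all DNA libraries between 0.180 and 0.674. The difference of 1.377 gave an exact permutation p of 5.67e-07, again the smallest possible. It was smallest in sub-library 3, at 0.863, and largest in sub-library 2, at 1.761.

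The same comparison can be read from how the counts were divided. Controls took 2.80% of the RNA counts and 5.87% of the DNA counts on average. Their share of RNA was lower than their share of DNA in every library of each sub-library, for example 3.83% ± 0.371 (SD, n = 4) against 7.57% ± 0.0895 (SD, n = 4) in sub-library 1 and 2.51% ± 0.264 (SD, n = 3) against 6.00% ± 0.143 (SD, n = 3) in sub-library 5. The 1% of regions with the most counts in a library took 26.7% of RNA counts and 13.9% of DNA counts. RNA was most concentrated in sub-library 4, where this share was 38.3% ± 1.33 (SD, n = 4) in RNA and 16.1% ± 0.126 (SD, n = 4) in DNA, and least in sub-library 2, at 17.1% and 10.8%. Both shares gave p = 5.67e-07 in the exact permutation test. Over the 4 measures, the upper end included, the Benjamini-Hochberg adjusted p was also 5.67e-07 each, from exact permutation.

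**Figure D1:**
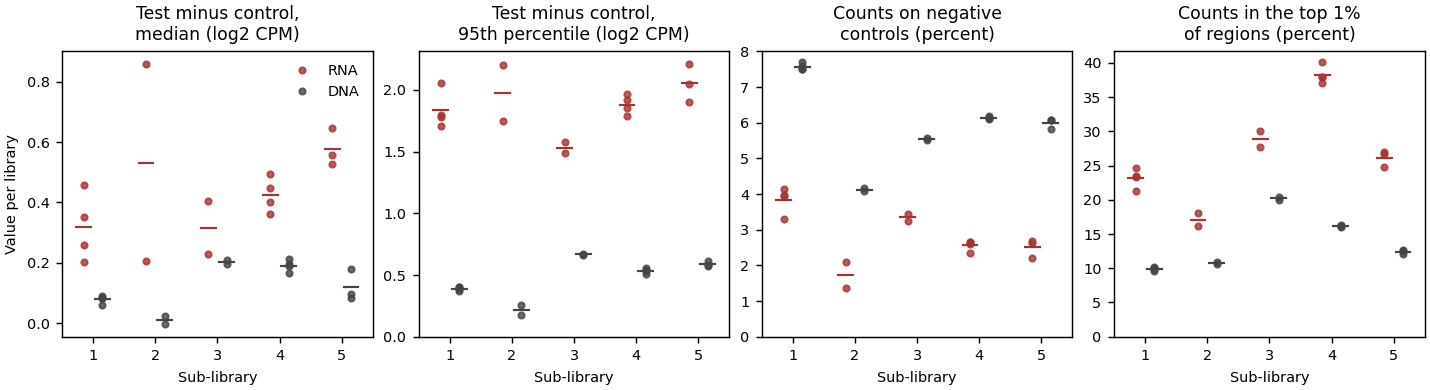
Each point is 1 library, plotted by sub-library with RNA in red and DNA in grey, and short bars are means. The 4 panels give test minus control at the median and at the 95th percentile (log2 CPM), the percent of counts on negative controls and the percent of counts in the top 1% of regions, and in each panel the RNA points of a sub-library lie apart from its DNA points.

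Region by region, the log2 ratio of RNA to DNA was fitted with edgeR's quasi-likelihood model within each sub-library. A region is called active where the ratio was above 0, and low where it was below 0, at a Benjamini-Hochberg adjusted p under 0.05 over all 72336 entries. The scaling by trimmed mean of M values (TMM) sets 0 near the middle region of a table, so both calls are relative to the other listed regions. Of the 66442 test regions, 17476 (26.3%) were called active and 14359 (21.6%) low. Of the 5894 control entries, 630 (10.7%) were active and 1298 (22.0%) low. Over all entries the active share was 25.0% and the low share 21.6%, figures that test regions dominate by their number. The active shares of test regions and controls thus stood apart, while the low shares were nearly equal. These shares count regions of the same libraries and were compared as a description, with no p.

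The distance between the classes widened with the size of the ratio, mainly on the active side. Active regions with a log2 ratio of at least 2 made up 10.4% of all entries, and they numbered 7444 test regions (11.2%) and 51 control entries (0.865%). At a log2 ratio of 3 or more there were 3587 active test regions (5.40%) and 9 controls (0.153%), and at 4 or more there were 1500 (2.26%) and 2. A ratio of 6 or more was reached by 136 active test regions and by none of the 5894 control entries. On the low side, regions called low with a log2 ratio of -2 or less made up 3.17% of all entries. They numbered 2152 test regions (3.24%) and 143 controls (2.43%), and at -3 or less there were 420 (0.632%) and 29 (0.492%). At -5 or less there were 20 test regions, 13 of them in sub-library 2, and no control.

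Quantiles showed the same shape without any call. The median log2 ratio was -0.04 for test regions and -0.24 for controls, and the 2.5% quantile was -2.19 and -2.01. The 97.5% quantile was 3.90 for test regions and 1.52 for controls. The limits within which the middle of the controls lay, leaving 2.5% at each end, were set for each sub-library apart. Test regions above the upper limit numbered 11566 (17.4%), and those below the lower limit 2314 (3.48%), where 2.5% of the controls lie at either side by construction. Of the 17476 active test regions, 11176 (64.0%) lay above the upper limit of the controls of their sub-library, and the remaining active regions did not. The limit is not the highest control, which was at 3.65, 2.56, 2.73, 5.59 and 2.95 in sub-libraries 1 to 5. Regions above the limit can therefore have ratios that some controls reached.

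**Figure D2:**
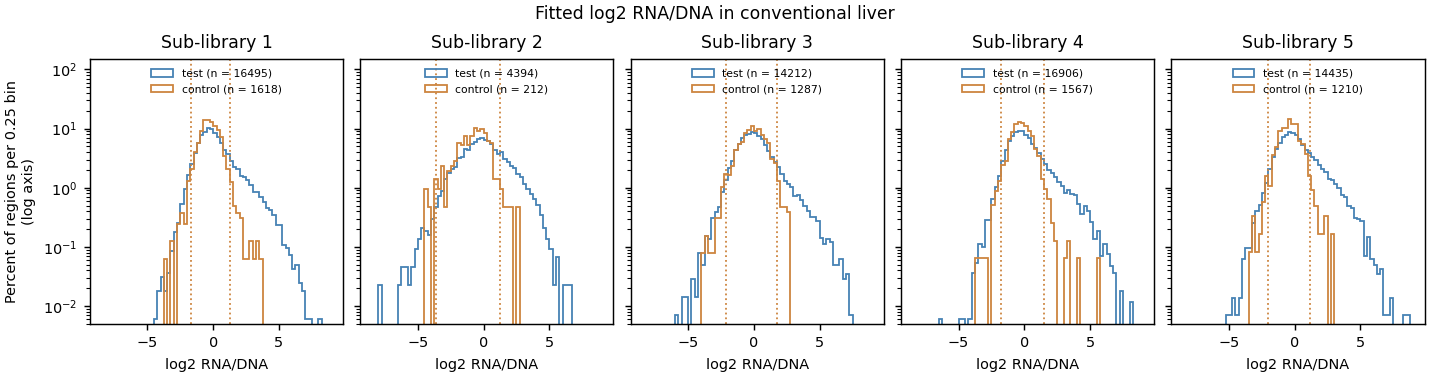
The percent of regions per bin of 0.25 (log axis) is plotted against the fitted log2 RNA/DNA for test regions in blue and negative controls in orange, with 1 panel for each sub-library. Dotted lines mark the lower and upper 2.5% of the controls, and the test regions extend further than the controls on the right in all 5 panels. The left sides lie closer together. In sub-library 2 the 2.5% quantile was -3.59 for controls and -3.25 for test regions, though the lowest test region there was at -7.95.

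In sub-library 1, 5064 of 16495 test regions (30.7%) were active and 4782 (29.0%) low, beside 29.2% active and 29.0% low over all its entries. Its controls were active in 225 of 1618 cases (13.9%) and low in 479 (29.6%). Sub-library 4, which also had 4 RNA libraries, gave much the same division. There, 5220 of 16906 test regions (30.9%) were active and 4837 (28.6%) low, beside 29.5% and 28.5% over all entries, and controls were active in 238 of 1567 (15.2%) and low in 437 (27.9%). The median standard error (SE) of a test region's log2 ratio was 0.22 and 0.23 in these sub-libraries.

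In sub-library 5, 3845 of 14435 test regions (26.6%) were active and 2690 (18.6%) low, beside 24.9% and 18.7% over all entries. Its controls were active in 57 of 1210 cases (4.71%), and low in 231 (19.1%). Test regions exceeded the upper limit of the controls in 22.4% of cases here, against 17.3% in sub-library 1 and 16.5% in sub-library 4. The count of low test regions fell to 1738, 1736 and 1730 without DNA replicate 1, 2 or 3. It rose to 2999, 3360 and 2880 without RNA replicate 1, 2 or 3.

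Sub-libraries 2 and 3, with 2 RNA libraries each, gave fewer calls. In sub-library 3, 2588 of 14212 test regions (18.2%) were active and 1507 (10.6%) low, beside 17.4% and 10.4% over all entries, and controls were active in 106 of 1287 (8.24%) and low in 110 (8.55%). In sub-library 2, 759 of 4394 test regions (17.3%) were active and 543 (12.4%) low, beside 16.6% and 12.7%. Only 4 of its 212 controls were active (1.89%), while 41 were low (19.3%), a larger share than among its test regions. These shares depend on where 0 lies. With TMM factors from the controls only, the median ratio of all its entries moved from -0.09 to 0.61, and low test regions fell to 208. The other sub-libraries had medians from 0.085 to 0.345 under that scaling. The median SE of a test region was 0.48 in sub-library 2 and 0.39 in sub-library 3. The smaller share of called regions there goes with a wider error. The share above the upper limit of the controls was 22.7% in sub-library 2 and 11.8% in sub-library 3. When only replicates 1 and 2 were used everywhere, an alternative chosen after the data were seen, calls were made for 42.3%, 27.9%, 26.8%, 56.0% and 32.5% of the test regions of sub-libraries 1 to 5, and the order of the sub-libraries kept 1 and 4 at the top.

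Counts in sub-libraries 2 and 3 depended on single libraries. Active test regions of sub-library 2 numbered 433 without DNA replicate 1 and 431 without DNA replicate 2, but 1706 without RNA replicate 1 and 1782 without RNA replicate 2. In sub-library 3 they numbered 1639 and 1626 without DNA replicate 1 or 2, and 5027 and 5274 without RNA replicate 1 or 2. The low test regions moved likewise, to 183, 180, 1836 and 1787 in sub-library 2 and to 500, 489, 5217 and 5317 in sub-library 3, in the same order of libraries. When an RNA library is left out, the other one is assumed to vary like the DNA libraries, which agree far more closely than RNA libraries do. Active controls over all sub-libraries rose from 630 to 973 without RNA replicate 1 of sub-library 3.

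A count that needs no model gave the same contrast between the classes. All RNA libraries lay above all DNA libraries, on scaled CPM, for 30.3% of test regions and 14.0% of controls. All RNA libraries lay below all DNA libraries for 31.4% of test regions and 32.6% of controls. This is another measure than the calls, which were 25.0% active and 21.6% low over all entries. With only 2 RNA and 2 DNA libraries, as in sub-libraries 2 and 3, such an order arises more easily. In sub-libraries 1 and 4, with 4 of each, RNA lay above for 28.6% and 29.0% of test regions and 11.6% and 13.0% of controls. It lay below for 29.6% and 29.5% of test regions and 30.9% and 28.8% of controls.

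The position of 0 depends on the scaling, and with it the split between active and low. With TMM, 54.9% of the called test regions were active. With library size alone the median ratio of all regions moved from -0.07 to -1.01, and 9438 test regions (14.2%) were active and 35392 (53.3%) low, so 21.1% of the called ones were active. With TMM factors taken from the controls only, the median was 0.20, and 20660 (31.1%) were active and 9685 (14.6%) low, or 68.1% active among those called. Controls were active in 1.53% of cases with library size alone and in 15.7% with control factors, below the test regions each time. The low share of controls was 65.3% and 13.3% under these scalings, above that of test regions in the first and below it in the second. A higher active share of test regions thus held under all 3 scalings, and the order of the low shares did not.

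The 2 highest test regions of sub-library 1 were EH38D4440680 and EH38D4364278. In RNA, EH38D4440680 had 5878, 7353, 6037 and 6525 scaled CPM in replicates 1 to 4, and in DNA it had 22.6, 24.7, 30.3 and 21.7. The 4 RNA values were close together and far above the DNA. Its log2 ratio was 8.02 ± 0.18 (SE), with an edgeR adjusted p of 4.23e-12. EH38D4364278 had 1222, 1213, 583 and 1126 scaled CPM in RNA and between 5.70 and 7.17 in DNA, with a log2 ratio of 7.32 ± 0.27 (SE). Replicate 3 gave the least RNA for it, but it too was far above all DNA libraries.

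The 2 lowest test regions of sub-library 1 were abundant in DNA. EH38D4361276 had 15.9, 23.7, 27.3 and 29.4 scaled CPM in RNA and 535, 461, 545 and 518 in DNA, a log2 ratio of -4.43 ± 0.18 (SE). EH38D5272203 had a log2 ratio of -4.20 ± 0.26 (SE), and its lowest RNA count, 10 reads in replicate 3, was at the listing minimum. The highest control was YOL020W_350_539, with 655, 693, 511 and 644 scaled CPM in RNA and 52.2, 46.5, 52.1 and 48.1 in DNA. Its RNA stood above its DNA in all 4 libraries, and its log2 ratio was 3.65 ± 0.14 (SE).

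Sub-library 2 held the lowest ratios of all the named regions. EH38D3648186 had 13.3 and 40.2 scaled CPM in RNA and 6277 and 6597 in DNA, so it was among the regions with most DNA and had almost no RNA. Its log2 ratio was -7.95 ± 0.68 (SE), with an edgeR adjusted p of 0.00121. EH38D5754419 followed with -6.42 ± 0.69 (SE), on 9.98 and 32.6 scaled CPM in RNA against 1641 and 1895 in DNA. RNA replicate 1 was the lower one for both, and its value for either region rests on 20 or 15 reads. At the upper end, EH38D5540734 had 6991 and 8469 scaled CPM in RNA and 77.2 and 84.0 in DNA, a log2 ratio of 6.58 ± 0.22 (SE). EH38D5497157 reached 6.41 ± 0.18 (SE). The highest control was YBR072W_183_372, at 756 and 441 scaled CPM in RNA and 112 and 91.2 in DNA, with a log2 ratio of 2.56 ± 0.39 (SE).

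In sub-library 3 the highest test region was EH38D4125496, with 5807 and 7938 scaled CPM in RNA and 39.5 and 43.4 in DNA. Its log2 ratio was 7.37 ± 0.24 (SE), and that of the next, EH38D4121854, was 7.16 ± 0.26 (SE), which is within their errors of each other. The lowest was EH38D5940064, with 67.4 and 45.1 scaled CPM in RNA and 3296 and 3406 in DNA, at -5.89 ± 0.26 (SE). This region had 318 and 156 RNA reads, so the listing minimum did not touch it. EH38D6024858 had a log2 ratio of -5.41 ± 0.18 (SE). The highest control, YNL161W_502_691, had 111 and 91.0 scaled CPM in RNA and 14.4 and 16.2 in DNA, at 2.73 ± 0.30 (SE).

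Sub-library 4 held the region with most RNA among those named. EH38D2846213 had 31620, 30050, 34300 and 24200 scaled CPM in RNA and 110, 110, 105 and 104 in DNA, or 66778 to 133675 RNA reads per library. Its log2 ratio was 8.13 ± 0.15 (SE), with an edgeR adjusted p of 3.60e-12. EH38D4613310 gave 8.03 ± 0.16 (SE), no different within error, on a DNA level between 17.2 and 21.1 scaled CPM. The lowest region, EH38D4764450, had 20.8, 29.8, 7.20 and 6.89 scaled CPM in RNA and 1342, 1252, 1320 and 1221 in DNA, at -6.28 ± 0.38 (SE). Its RNA varied between libraries, while its DNA did not. EH38D4892285 was at -4.75 ± 0.15 (SE).

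The highest control of all sub-libraries was also in sub-library 4. YGR077C_561_750 had 1111, 835, 932 and 767 scaled CPM in RNA and 16.9, 19.6, 19.0 and 20.1 in DNA. With a log2 ratio of 5.59 ± 0.17 (SE), it was the only active control entry at 5 or more, a ratio that 491 active test regions reached. This control was listed in all 5 sub-libraries, and its log2 ratio over them had a median of 0.073 and a minimum of -0.696. It was called active in 2 of the 5, so the high ratio belongs to its entry in sub-library 4. That same entry had a log2 ratio of 3.33 in HepG2 and 3.59 in germ-free liver.

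In sub-library 5, EH38D2916455 had 7025, 7199 and 8571 scaled CPM in RNA and 22.3, 26.1 and 25.3 in DNA. Its log2 ratio of 8.28 ± 0.16 (SE) was the highest among the named regions, followed in this sub-library by EH38D5338168 at 7.47 ± 0.17 (SE). The lowest were EH38D5072973, with 12.5, 3.34 and 10.5 scaled CPM in RNA and 321, 275 and 313 in DNA, and EH38D5403587. Their log2 ratios were -5.08 ± 0.39 (SE) and -4.85 ± 0.43 (SE), which overlap within error. Among controls whose DNA counts averaged 50 or more, as required of the highest and lowest regions given here, the highest control was again YBR072W_183_372, with 269, 250 and 323 scaled CPM in RNA and 38.3, 43.5 and 36.6 in DNA, at 2.83 ± 0.18 (SE). Below that level, on a mean of 18.3 DNA reads each, the control YDL157C_72_261 reached 2.95 and the test region EH38D2869562 reached 8.68.

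**Figure D3:**
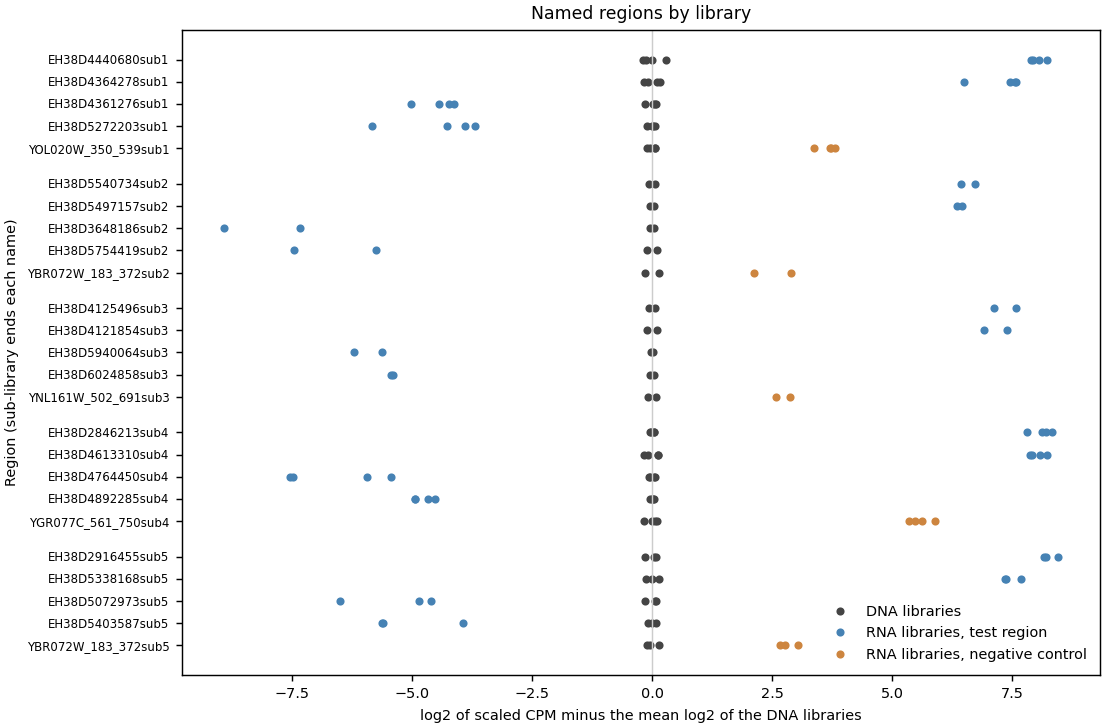
Each point is 1 library: log2 scaled CPM minus the mean log2 of the DNA libraries, for the 2 highest and 2 lowest test regions and the highest negative control of each sub-library. RNA libraries of test regions (blue) and of controls (orange) lie apart from the DNA libraries (grey) for each region, which the choice of regions required.

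Most of these regions were also listed in HepG2 and germ-free liver, and the differences between systems were not tested here. Shares above 0 or past the threshold over all regions of these systems were not taken, so the counts below describe the named regions only. By sub-library, regions also listed in conventional liver had median log2 ratios from 0.036 to 0.698 in HepG2 and from 0.060 to 0.576 in germ-free liver. HepG2 has 1 DNA library per sub-library, so its errors and calls rest on the spread of the RNA libraries. EH38D4440680 had a log2 ratio of 5.82 ± 0.21 (SE) in HepG2 and 4.70 ± 0.41 (SE) in germ-free liver. EH38D2916455 had 1.69 ± 0.53 (SE) and 3.80 ± 1.16 (SE), against 8.28 in conventional liver. Of the 10 lowest test regions, 9 were listed in each system and all of these had ratios below 0, with 9 past the threshold in HepG2 and 8 in germ-free liver. EH38D4361276 had -3.69 ± 0.27 (SE) and -5.43 ± 0.56 (SE). EH38D5272203 had -1.49 ± 0.79 (SE) in germ-free liver, which did not pass the test (edgeR adjusted p = 0.149). All 10 highest test regions had ratios above 0 in both other systems, though for EH38D5497157 in germ-free liver the value of 1.76 ± 1.04 (SE) did not pass the test (edgeR adjusted p = 0.182). Of the entries that were highest controls, 3 of 5 were above 0 in HepG2 and 4 of the 4 listed were above 0 in germ-free liver. The entries of sub-libraries 2 and 5 are the same control, YBR072W_183_372. Its log2 ratios there were 2.01 and 1.86 in HepG2 and 2.79 and 2.73 in germ-free liver. YOL020W_350_539 was at -0.53 ± 0.59 (SE) in HepG2 and 2.00 ± 0.24 (SE) in germ-free liver.

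Name starts other than EH38D were few. Of 66330 EH38D entries, 26.3% were active and 21.6% low. The 105 EM10D entries, which stand for 34 names, had 8 active and 32 low entries and a median log2 ratio of -0.33. The highest was EM10D2183391 in sub-library 4, with 791, 688, 456 and 342 scaled CPM in RNA and between 58.1 and 64.8 in DNA, at 3.23 ± 0.23 (SE). The lowest was EM10D2546617 in sub-library 2, at -2.98 ± 0.47 (SE), with RNA of 13.3 and 15.2 against DNA of 128 and 96.1. Its call was lost without DNA replicate 1 (edgeR adjusted p = 0.0896) or DNA replicate 2 (edgeR adjusted p = 0.0667). Of 7 Peak_ entries, Peak_139304 in sub-library 1 was highest at 1.00 ± 0.16 (SE), which fell to 0.11 with library size alone. Peak_141623 in sub-library 5 was lowest at -1.21 ± 0.41 (SE), and that call was lost without RNA replicate 3 (edgeR adjusted p = 0.0741) and without DNA replicate 1, 2 or 3 (edgeR adjusted p = 0.121, 0.106 and 0.0721).

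Most test names were listed in 1 sub-library, and repeats gave a check of the ratios in separate libraries. Of 73 test names listed in 2 or more sub-libraries, 20 were active somewhere, 29 were low somewhere and 1 was both. Active in each sub-library that listed them were 4, low in each were 8, and 25 were never called. Of 1687 repeated controls, 373 were active somewhere, 718 low somewhere and 41 both. A name listed several times has several chances of a call. Counted by entry, 15.6% of the 211 entries of repeated test names were active and 22.3% low, beside 25.0% and 21.6% of all entries. Of the 5643 entries of repeated controls, 11.1% were active and 21.2% low. The range of a name's log2 ratio over its sub-libraries had a median of 0.56 for test names and 0.85 for controls. A range grows with the number of listings, which differed between the classes. Listed in 2, 3, 4 and 5 sub-libraries were 32, 20, 18 and 3 test names and 362, 528, 650 and 147 controls. The 2 medians therefore do not compare how well the classes repeat. The test name called both ways was EH38D3158849, singled out after its values were seen, with ratios from -2.02 to 1.76 and a median of 1.28.

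The test names in all 5 sub-libraries were EM10D2183391, EH38D5698024 and EH38D5698027. EM10D2183391 had log2 ratios of 2.07, 0.79, 0.69, 3.23 and 2.42 in sub-libraries 1 to 5, with SE between 0.12 and 0.26, and all RNA libraries lay above all DNA libraries each time. It was called active in sub-libraries 1, 4 and 5, and it missed the threshold in sub-library 2 (edgeR adjusted p = 0.069) and sub-library 3 (edgeR adjusted p = 0.0505). Its call in these sub-libraries depended on the setting. It passed in both without either RNA library and with control factors, and in neither without DNA replicate 1 or 2, where edgeR's adjusted p was up to 0.554 in sub-library 2 and 0.396 in sub-library 3. With library size alone the ratio was 0.22 in sub-library 2 and -0.10 in sub-library 3. EH38D5698027 was below its DNA in all libraries, at -1.55, -1.49, -1.71, -1.24 and -1.94, and was called low in all but sub-library 3 (edgeR adjusted p = 0.0978). In sub-library 2 that call was lost without DNA replicate 1 (edgeR adjusted p = 0.213) or DNA replicate 2 (edgeR adjusted p = 0.242). EH38D5698024 took values on both sides of 0, at -0.19, -0.84, 0.27, 1.03 and 0.22, and was called active in sub-library 4 only, where the ratio was -0.24 with library size alone.

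Among 147 controls listed in all 5 sub-libraries, 1 was active in all of them and 6 were low in all of them. The active one, YBR072W_183_372, had log2 ratios of 3.15 ± 0.13, 2.56 ± 0.39, 1.88 ± 0.36, 3.42 ± 0.24 and 2.83 ± 0.18 (SE). Its RNA lay above its DNA in all 15 RNA libraries, though in sub-library 3 the call was lost without DNA replicate 1 (edgeR adjusted p = 0.0783) or DNA replicate 2 (edgeR adjusted p = 0.129). It was also above 0 in HepG2, from 1.416 to 2.142, and in germ-free liver, from 2.42 to 3.12. The low controls were led by YML052W_338_527, at -2.35 ± 0.16, -4.47 ± 0.28, -3.48 ± 0.46, -2.32 ± 0.17 and -3.26 ± 0.49 (SE). In sub-library 1 it had 52.0, 30.4, 39.2 and 36.7 scaled CPM in RNA and 213, 199, 201 and 198 in DNA. YOL120C_393_582, the next lowest of these controls by its median, ranged from -0.65 to -3.22 and was called low in 4 of the 5. The other highest controls, YIL011W_418_607 and YBR152W_156_345, were called active in 3 and 4 sub-libraries. For YBR152W_156_345 in sub-library 3, at 1.16 ± 0.35 (SE), the call was lost without DNA replicate 1 (edgeR adjusted p = 0.455) or DNA replicate 2 (edgeR adjusted p = 0.312).

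The median of these 147 controls was lowest in sub-library 2. Their median log2 ratio was 0.02, -0.77, 0.12, 0.30 and -0.18 in sub-libraries 1 to 5. Active calls numbered 47, 2, 26, 50 and 15, or 32.0%, 1.36%, 17.7%, 34.0% and 10.2%, beside 13.9%, 1.89%, 8.24%, 15.2% and 4.71% of all control entries. Low calls numbered 32, 36, 17, 27 and 25, or 21.8%, 24.5%, 11.6%, 18.4% and 17.0%, beside 29.6%, 19.3%, 8.55%, 27.9% and 19.1%. To be listed in all 5, these controls had to have at least 10 reads in every RNA library. They were thus chosen in part on RNA, which enters the ratio, and the shares set side by side are a description. Both active and low, in different sub-libraries, were 15 of these names, and in 13 of the 15 the low call was in sub-library 2. With TMM, each ratio is relative to the regions listed in its own table, and the listing in sub-library 2 was the shortest. Whether that moved the ratios was not tested.

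**Figure D4:**
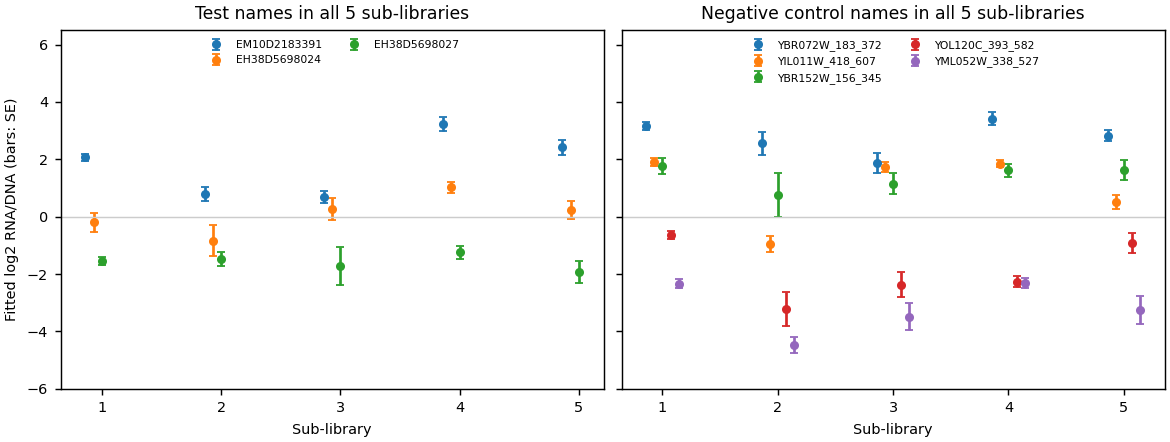
The fitted log2 RNA/DNA (points) with its standard error (bars) is plotted by sub-library for the 3 test names and for 5 negative controls listed in all 5 sub-libraries. YBR072W_183_372 lies above 0 and YML052W_338_527 below 0 throughout, and YIL011W_418_607 is below 0 in sub-library 2 only.

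Controls that share their stem allowed a look at overlapping positions, as read from their names. The stems numbered 1644. Pairs of controls that shared 95 or more of the 190 positions gave a Pearson correlation of 0.466 over 54 pairs in sub-library 1, 0.496 over 40 in sub-library 3, 0.311 over 51 in sub-library 4 and 0.408 over 31 in sub-library 5. Pairs with the same stem and no shared position gave -0.038, 0.036, 0.060 and 0.006, over 135, 88, 126 and 70 pairs. Pairs that shared fewer than 95 positions gave between -0.204 and 0.051. The absolute difference within a pair did not shrink in the same way. Its median was 0.627, 0.811, 0.787 and 0.645 for 95 or more shared positions and 0.667, 0.855, 0.682 and 0.814 for none, so in sub-library 4 it was larger with overlap. Sub-library 2 had too few pairs to be included. All points of a correlation come from the same libraries, and a control may enter several pairs, so these values are a description.

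Ratios also varied with the amount of DNA. Regions were put into 4 bins of nearly equal size by mean DNA count in each sub-library. In sub-library 1, active test regions fell from 40.8% in the bin with least DNA to 25.3% in that with most, and low ones rose from 8.97% to 46.5%. Low controls rose from 7.37% to 53.1% over the same bins. In sub-library 5, active test regions went from 34.2% to 20.5% and low ones from 3.11% to 39.2%. The low share rose from the first to the last bin in test regions and controls of all 5 sub-libraries. DNA counts enter both the bins and the ratio, and the listing minimum leaves out regions with little RNA, which at low DNA are those with low ratios, so these trends cannot be told apart from how the tables were built. Within the bin with least DNA, 40.8% of test regions and 18.9% of controls of sub-library 1 were active, and in the bin with most DNA the shares were 25.3% and 12.6%. Test regions were active more often than controls in all 4 bins of each sub-library.

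**Figure D5:**
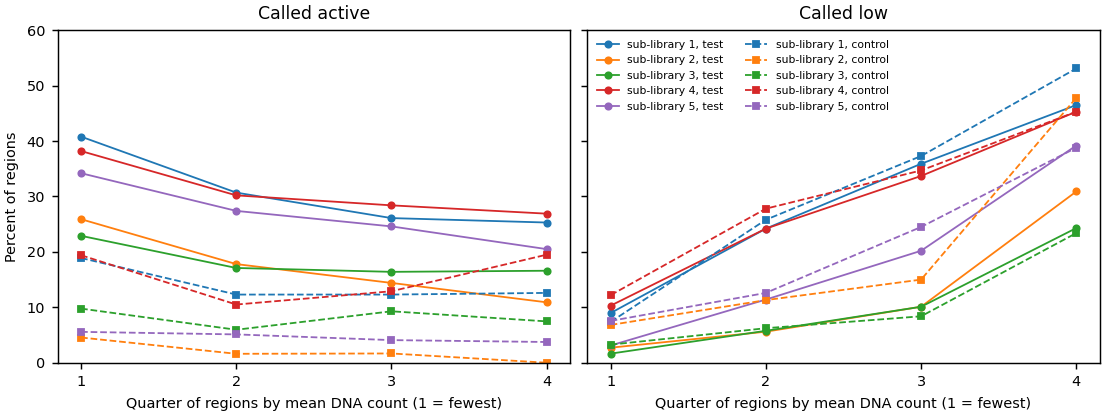
The percent of test regions (solid lines) and negative controls (dashed lines) called active (left) and low (right) is plotted against 4 bins of mean DNA count, with 1 colour per sub-library. Solid lines lie above dashed lines of the same colour on the left, and both kinds rise to the right in the panel of low calls, from 8.97% to 46.5% for test regions of sub-library 1.

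The listing minimum touched low calls far more than active ones. Of 14359 low test regions, 4391 (30.6%) had under 20 reads in at least 1 RNA library, against 126 of 17476 active ones (0.721%). Set against the other tables, conventional liver listed 20.4% of the regions that HepG2 listed in sub-library 2 and between 70.9% and 86.2% in the other 4. The regions of sub-library 2 that both listed had a median HepG2 log2 ratio of 0.70, and those listed in HepG2 only had -0.17. Their median HepG2 DNA counts were 294 and 211. In all 5 sub-libraries the regions that liver did not list had lower HepG2 ratios and fewer DNA reads. The low side of the conventional liver tables is therefore counted among regions that still gave at least 10 reads in every RNA library.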

How the data were processed

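The authors deposited 1 table of counts per sub-library, with whole-number reads per region and library and no normalization. Per the submitters' processing notes, BWA, hg38, DESeq2 1.42.1 and edgeR 4.0.16 were used. The labels' protocols name a primer with a molecular identifier, but whether the deposited counts were collapsed by it is not stated, so PCR reads may not be independent molecules and depth covers counting error only.

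Each sub-library was fitted alone with edgeR 4.0.16 in R 4.3.3, by the robust quasi-likelihood test of RNA against DNA with TMM factors, with a minimum of 10 on a region's mean DNA count, which all regions met. Benjamini-Hochberg adjustment ran over all 5 sub-libraries, with a threshold of 0.05. The SE is the log2 ratio divided by the square root of F. It rests on a spread fitted to RNA and DNA libraries together, and can be too small where RNA varied more than DNA. Over RNA libraries, the SD of the log2 ratio to mean DNA ran from 0.032 to 1.207 among the highest and lowest test regions named per sub-library. For EH38D5272203 that SD was 0.97, beside an SE of 0.26. Scaled CPM are counts over the TMM-scaled library size. Group differences in per-library measures used exact permutation within sub-libraries (Python 3.11.15, numpy 2.4.6). HepG2 and germ-free tables were fitted in the same way, with 1 DNA library per sub-library in HepG2. limma 3.58.1 and DESeq2 1.42.0 served as alternatives. The fits were tested on simulated data.

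Named regions were, per sub-library, the 2 highest and 2 lowest called test regions and the highest called control, where the DNA count averaged 50 or more and RNA and DNA libraries did not overlap. Added to these were the highest and lowest for each other name start and, among names in all 5 sub-libraries, all 3 test names and the 3 highest and 2 lowest controls by median. Members and lists were chosen with earlier results of these data known. Replicate numbers came from the titles, and whether they pair RNA with DNA was not established. Deviations of same-numbered RNA and DNA libraries correlated between -0.013 and 0.018. DNA replicates lay so close together that this correlation could not settle it.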

Additional observations from a re-analysis of the deposited data

Results flagged for a closer look

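Among 70 groups of 4 libraries, over the named regions and the per-library measures, 3 had 1 library that stood apart from the other 3 by Dixon's criterion, and chance alone marks about 1 in 20 such groups. For EH38D4364278 in sub-library 1, RNA replicate 3 had 582.8 scaled CPM and the other 3 between 1126 and 1222. For Peak_139304 in sub-library 1, DNA replicate 4 had 39.43 scaled CPM and the others between 35.88 and 36.34. For EH38D5698024 in sub-library 4, RNA replicate 1 had 66.23 scaled CPM and the others between 39.51 and 40.98.

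The test region EH38D5698024 and the control YIL011W_418_607 had all RNA libraries above all DNA libraries in some sub-libraries and below in another. EH38D5698024 had a log2 ratio of 1.025 in sub-library 4, where it was called active, and -0.837 in sub-library 2, where no call was made. YIL011W_418_607 had 1.917 in sub-library 1, where RNA was 613, 564, 651 and 861 scaled CPM and DNA 174 to 183, and -0.954 in sub-library 2, where RNA was 309 and 216 and DNA 501 and 517. The value in sub-library 2 did not pass the test (edgeR adjusted p = 0.0577). The difference between sub-libraries was not tested for either name.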

How the results depend on the processing

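With library size alone in place of TMM, active test regions numbered 2697, 1597, 2270 and 2269 in sub-libraries 1, 3, 4 and 5, low ones 10560, 1005, 4502, 12021 and 7304 in sub-libraries 1 to 5, and controls were active in 90 and low in 3846 cases. With TMM on negative controls, low controls numbered 783, and low test regions 208 in sub-library 2 and 1393 in the fifth. With replicates 1 and 2 only, chosen after the data were seen, low test regions numbered 2860 in the first sub-library and 1598 in the fifth. With limma on RNA libraries, so that the spread comes from RNA alone (also chosen after the data were seen), they numbered 845 in sub-library 2, and all test regions gave 15963 active and 15528 low. Adjusting within each sub-library gave 357 and 963 low test regions in sub-libraries 2 and 3. The cause of these shifts was not tested, apart from fewer libraries. Leaving out 1 library gave from 431 to 1782 active and 180 to 1836 low test regions in sub-library 2, from 1626 to 5274 and 489 to 5317 in sub-library 3, from 3246 to 4388 and 1730 to 3360 in sub-library 5, and from 535 to 973 active controls. In sub-libraries 1 and 4 it gave from 4639 to 5338 and from 4821 to 5597 active test regions. DESeq2 gave 19299 active and 14726 low test regions. A minimum of 50 on the mean DNA count gave 17242 and 14188.

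The share of test regions below the lower limit of the controls, 3.48%, was 6.21% with limits at 5% and 1.80% with limits at 1%. Limits at 5% leave a narrower range of controls and limits at 1% a wider one, so this order is required. The shift of test against control in RNA over DNA stayed between 0.248 and 0.378 when 1 library was left out, with exact permutation p of at most 0.000285. The upper tail and both count shares kept an exact permutation p of 5.67e-07, the smallest possible with all libraries, in each such run.

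The replicate block, by numbers that may or may not pair the samples, gave 16461 active and 15005 low test regions, with 729 and 663 in sub-library 2. It moved no count by more than 1.5 times. Exact sign flips within same-numbered pairs gave a permutation p of 6.1e-05 for the 4 per-library measures. Of 965 alternative values for the 66 named ratios, 903 kept direction and call, 25 lost the call over 9 regions, 28 gained one and 9 changed sign, 5 of these with library size alone. Of the 9, only EH38D5698024 in sub-library 4, at -0.244 with library size alone, had been called; the other 8 were of ratios with no call, such as YIL011W_418_607 in sub-library 5, from 0.506 to -0.452 with library size alone. YBR152W_156_345 in sub-library 3 lost its call most often, with edgeR adjusted p up to 0.455. No setting varied depth, and 30.6% of low test regions had under 20 reads in an RNA library.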
